A study of Saccharomyces cerevisiae with 2 samples.

Results

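The 26S proteasome genes of Saccharomyces cerevisiae were followed in RNA-seq libraries of cdc55Δ and WT cells. The members were taken by gene name from the rows that the table annotates as mRNA, and all 36 names were found among 5995 mRNA features and 6420 features in all. They comprise 14 genes of the core particle, 18 of the regulatory particle and 4 outside the particles, namely RPN4, RPN14, BLM10 and ECM29. The cdc55Δ cells lack CDC55, which encodes a regulatory subunit of protein phosphatase 2A, and carry no other engineered difference from WT in the labels. Both strains have the BY4741 background, a haploid laboratory strain, and both cultures stood still at 30 °C in the rich, high-glucose medium YPD20 (20% glucose) and were collected after 6 h. Each strain was represented by 1 library. The differences below are between these libraries, and the spread between cultures of a strain is unknown. How many independent isolates the cdc55Δ strain comes from is not given in the sources used here.

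The counts summed to 30133454 in the cdc55Δ library and to 33233285 in the WT library. CDC55 had 1 count in the cdc55Δ library and 2614 counts in the WT library. With the cdc55Δ count set to a floor of 3, CDC55 was 775-fold lower after scaling. Of the markers removed in BY4741, LEU2, MET17 and URA3 had at most 2 counts in either library, whereas HIS3, of which the BY4741 allele lacks only a part, had 1275 counts in cdc55Δ and 1624 in WT. Log2 fold changes are those of cdc55Δ over WT after TMM scaling, a normalization that sets the bulk of features to an equal level, with 0.5 added to each count. The 95% intervals were derived by the Clopper-Pearson method from a gene's count in each library. They cover counting error only, and PCR copies are not independent molecules. Features were counted as tested where their TMM-scaled counts averaged 50 or more, which held for 5705 features and all 36 members.

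The proteasome degrades proteins that carry ubiquitin chains. Its core particle is a barrel of stacked rings, with outer rings of α subunits that gate the entry and inner rings of β subunits, some of which cut peptide bonds. The regulatory particle sits on the α ring. Its base unfolds substrates with a ring of ATPases and its lid removes the ubiquitin chain. In yeast, Rpn4p activates the proteasome genes through an upstream element called PACE (proteasome-associated control element), and Rpn4p is itself a short-lived substrate of the proteasome.

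All 36 genes were higher in cdc55Δ than in WT. Among all tested features 50.4% were higher and 49.6% were lower. The differences were small and lay close together. The median log2 fold change of the members was 0.27, which corresponds to 20.3% more reads after scaling, and the range ran from 0.13 for PRE1 to 0.44 for PUP3. Over all tested features the median was 0.00 and the middle 95% lay between -0.63 and 0.89, a much wider spread than that of the members. The lower bound of the counting interval was above 0 for all 36 members, against 31.5% of the tested features. No member had an interval below 0, where 28.4% of the features did. Intervals are narrower at higher counts, and so exclude 0 more readily. Of the 1615 other mRNA features in the level range of the particle genes, 615 had an interval above 0 and 540 had one below 0. Even without scaling, 32 of the 36 genes had more reads in cdc55Δ, although that library was the smaller one. For the background, RPN2 had nearly equal raw counts, 20045 in cdc55Δ and 20023 in WT. Its log2 fold change was above that of 76.7% of the tested features. In a bulk culture, more cells that express these genes and more RNA per cell cannot be told apart.

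The shift was regular over the members and small in size. At least 25% higher were 9 of the 36, namely PUP3, BLM10, ECM29, RPN1, PRE2, RPN6, PRE4, RPN9 and RPT3, against 11.9% of the tested features. None was lower by the same factor, against 8.57%. At 1.5-fold no member was higher, against 5.19% of the features, and none was lower, against 2.96%. At 2-fold the members again numbered 0 in each direction, where 1.91% of the features were higher and 1.03% were lower. With the total count or the deposited RPKM as the scale, 6 members were at least 25% higher, against 10.53% of the features. Upper-quartile scaling also gave 6 members, against 10.01% of the features. It changed the split over all features to 571 higher and 622 lower by that factor, where TMM gave 677 higher and 489 lower. The interval from the lowest to the highest member holds all 36 by construction. Of the tested features, members included, 20.7% had a log2 fold change inside it, and 71.5% lay below the lowest member.

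**Figure D1:**
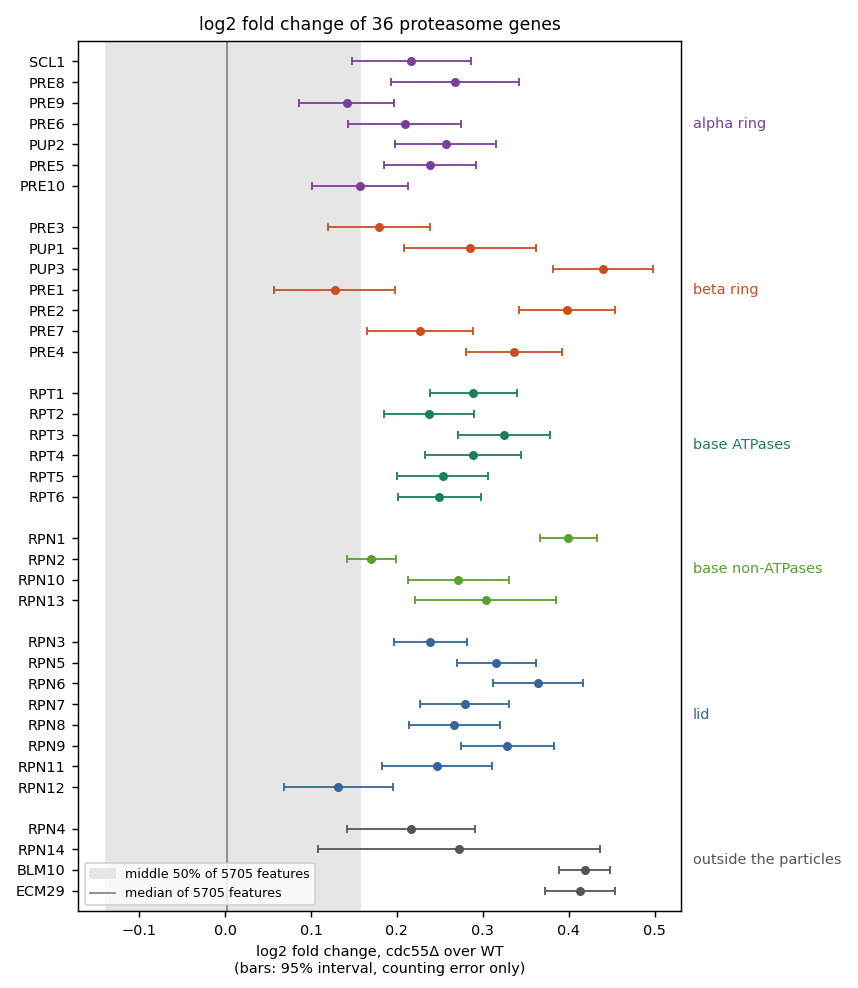
Log2 fold change of cdc55Δ over WT (horizontal axis) of each of the 36 proteasome genes, grouped by place in the complex. Points are values from 1 library per strain, bars are 95% counting intervals, the grey band is the middle 50% of 5705 tested features and the grey line is their median. All 36 bars lie to the right of 0, from PRE1 at 0.13 to PUP3 at 0.44.

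The plot of log2 fold changes by place in the complex shows that the groups overlap. The median log2 fold change was 0.23 in the core particle (range 0.13 to 0.44) and 0.28 in the regulatory particle (0.13 to 0.40). The log2 fold change of core minus regulatory was -0.043 by medians. From the summed counts it was -0.022, with 62633 reads in cdc55Δ and 59135 in WT for the core particle and 130276 in cdc55Δ and 121139 in WT for the regulatory particle. The log2 fold change of these sums was 0.25 (95% interval 0.24 to 0.27) for the core and 0.27 (0.26 to 0.28) for the regulatory particle, and the intervals overlap. Genes of both particles together held 0.640% of all counts in cdc55Δ and 0.542% in WT.

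Differences within a particle were larger than that between the particles. The standard deviation of the log2 fold change over the 36 genes was 0.081, and the error expected from counting alone was 0.032. Of 630 pairs of members, 214 had intervals that do not overlap. The same share over pairs of other features was not computed. Over the 1615 other mRNA features in the level range of the particle genes the standard deviation was 0.303, and the counting error was 0.031. The β ring was the most spread of the groups inside the particles (SD 0.115, n = 7 genes) and the base ATPases were the least spread (SD 0.033, n = 6 genes). Genes are not replicates, so these SDs describe the genes and are not an error of the strains.

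Among the catalytic β subunits, PRE2 (YPR103W, chrXVI:732349-733212, plus strand), which encodes β5 with the chymotrypsin-like site, had 5652 counts in cdc55Δ and 4821 in WT. Its log2 fold change was 0.40 (0.34 to 0.45). PUP1, which encodes β2 with the trypsin-like site, had 2849 counts in cdc55Δ and 2628 in WT, a log2 fold change of 0.28 (0.21 to 0.36). The lowest of these was PRE3, which encodes β1 with the caspase-like site, at 4541 counts in cdc55Δ and 4508 in WT and a log2 fold change of 0.18 (0.12 to 0.24). The intervals of PRE2 and PRE3 do not overlap, whereas that of PUP1 overlaps both.

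The other β genes encode structural subunits of the ring. PUP3 (YER094C, chrV:348729-349346, minus strand), which encodes β3, had 5197 counts in cdc55Δ and 4306 in WT. Its log2 fold change of 0.44 (0.38 to 0.50) was the highest of the 36. PRE4 (YFR050C, chrVI:249066-249866, minus strand), which encodes β7, had 5492 counts in cdc55Δ and 4889 in WT, a log2 fold change of 0.34 (0.28 to 0.39). Both genes were thus above the middle of the members. PRE7, which encodes β6, had 4323 counts in cdc55Δ and 4153 in WT. PRE1 (YER012W, chrV:177835-178431, plus strand), which encodes β4, had 3236 counts in cdc55Δ and 3329 in WT. Its raw count was lower in cdc55Δ, and after scaling it had the lowest log2 fold change of the 36, 0.13 (0.06 to 0.20).

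The α ring genes lay lower, with a median log2 fold change of 0.22 against 0.28 for the β ring, and none of the 7 was as much as 25% higher. PRE9 (YGR135W, chrVII:761392-762168, plus strand), which encodes α3, the α subunit that yeast can live without, had 5171 counts in cdc55Δ and 5269 in WT, a log2 fold change of 0.14 (0.09 to 0.20). PRE10 (YOR362C, chrXV:1017880-1018746, minus strand), which encodes α7, had 5231 counts in cdc55Δ and 5273 in WT, a log2 fold change of 0.16 (0.10 to 0.21). These were the lowest of the ring, and both had fewer raw reads in cdc55Δ. PRE8, which encodes α2, was the highest of the ring at 0.27 (0.19 to 0.34), with 3028 counts in cdc55Δ and 2827 in WT.

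The remaining α genes stood between these. SCL1, which encodes α1, had 3433 counts in cdc55Δ and 3321 in WT, and PRE6, which encodes α4, had 3805 in cdc55Δ and 3699 in WT. PUP2, which encodes α5, had 4820 counts in cdc55Δ and 4534 in WT. PRE5, which encodes α6, had 5855 counts in cdc55Δ and 5578 in WT. Their log2 fold changes ran from 0.21 for PRE6 to 0.26 for PUP2, and the 4 intervals overlap.

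The 6 ATPases of the base form a ring that pulls the substrate into the core, and their genes were the most alike. RPT3 was the highest at 0.32 (0.27 to 0.38), with 5922 counts in cdc55Δ and 5314 in WT. RPT2 (YDL007W, chrIV:438047-439360, plus strand), whose protein helps to open the gate of the α ring, was the lowest at 0.24 (0.19 to 0.29), with 6042 counts in cdc55Δ and 5759 in WT. All 6 lay between these values, a narrower range than that of the other groups. RPT1 had 6697 counts in cdc55Δ and 6160 in WT. RPT4 had 5441 counts in cdc55Δ and 5007 in WT. RPT5 had 5845 counts in cdc55Δ and 5512 in WT, and RPT6 had 7219 in cdc55Δ and 6825 in WT. All 6 genes had more raw reads in cdc55Δ.

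The large scaffold subunits of the base lay apart from each other. RPN1 (YHR027C, chrVIII:161730-164711, minus strand), whose protein docks shuttle factors that bring ubiquitinated substrates, had 15870 counts in cdc55Δ and 13524 in WT, a log2 fold change of 0.40 (0.37 to 0.43). RPN2 (YIL075C, chrIX:217863-220700, minus strand), a related scaffold that holds Rpn13p, had 20045 counts in cdc55Δ and 20023 in WT, a log2 fold change of 0.17 (0.14 to 0.20). These genes are the deepest of the particle genes, and their intervals do not overlap. The ubiquitin receptor genes RPN10 and RPN13 lay between the scaffolds. RPN10 had 4864 counts in cdc55Δ and 4529 in WT, a log2 fold change of 0.27. RPN13, which the table names as a lid subunit and which is grouped with the base here because its protein binds Rpn2p, had 2502 counts in cdc55Δ and 2279 in WT, a log2 fold change of 0.30.

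In the lid, whose median was 0.27, RPN6 (YDL097C, chrIV:285391-286695, minus strand), a subunit that clamps the lid to the core, was the highest. It had 6336 counts in cdc55Δ and 5533 in WT, a log2 fold change of 0.36 (0.31 to 0.42). RPN9 (YDR427W, chrIV:1322205-1323386, plus strand) had 5914 counts in cdc55Δ and 5293 in WT, a log2 fold change of 0.33 (0.27 to 0.38). RPN12 (YFR052W, chrVI:252505-253329, plus strand), the subunit that joins last in assembly of the lid, was the lowest of the lid. It had 3921 counts in cdc55Δ and 4022 in WT, a log2 fold change of 0.13 (0.07 to 0.20). Its interval overlaps neither that of RPN6 nor that of RPN9, but it overlaps that of RPN11 (0.18 to 0.31).

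RPN11, which encodes the deubiquitinase of the lid, had 4058 counts in cdc55Δ and 3844 in WT, a log2 fold change of 0.25. RPN8, which encodes its inactive partner, had 6024 counts in cdc55Δ and 5627 in WT, a log2 fold change of 0.27. The difference between these partner genes was thus within counting error. RPN3 had 9154 counts in cdc55Δ and 8718 in WT. RPN5 had 8116 counts in cdc55Δ and 7328 in WT, and RPN7 had 6306 in cdc55Δ and 5842 in WT. These 3 genes encode structural subunits of the lid, and their log2 fold changes ran from 0.24 for RPN3 to 0.32 for RPN5.

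RPN4 (YDL020C, chrIV:415113-416708, minus strand), which encodes the transcription factor, had 2983 counts in cdc55Δ and 2885 in WT. Its log2 fold change of 0.22 (0.14 to 0.29) held rank 28 of the 36. This was below the median of the genes that it is known to activate, 0.26 over both particles. The interval of RPN4 contains that median. The protein level of Rpn4p was not measured.

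BLM10 (YFL007W, chrVI:123479-129910, plus strand), which encodes an alternative cap of the core particle, had 19935 counts in cdc55Δ and 16761 in WT. Its log2 fold change was 0.42 (0.39 to 0.45). ECM29 (YHL030W, chrVIII:40084-45690, plus strand), whose protein binds the core and the regulatory particle and tethers them, had 10400 counts in cdc55Δ and 8778 in WT, a log2 fold change of 0.41 (0.37 to 0.45). These genes held ranks 2 and 3, and their intervals overlap that of PUP3. RPN14 (YGL004C, chrVII:490703-491956, minus strand), which encodes an assembly chaperone of the base, had 634 counts in cdc55Δ and 590 in WT. Its log2 fold change of 0.27 has the widest interval of the members, from 0.11 to 0.44.

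BLM10, ECM29 and RPN1 are also the longest of the 36 genes. Over the 522 other tested mRNA features at least as long as RPN1 the median log2 fold change was 0.00, as it was over the 4990 shorter ones. RPN2, which is nearly as long as RPN1, was among the lowest members. Over the 32 members shorter than RPN2 the median was 0.26 and the range was again 0.13 to 0.44.

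Levels can be compared between genes only per length, and the deposited RPKM values (counts divided by the listed transcript length and by the library's total) were used for this. The 32 genes of the particles lay within a narrow band, between 120 and 279 RPKM in cdc55Δ and between 101 and 238 RPKM in WT. The highest was thus 2.32 times the lowest in cdc55Δ and 2.37 times the lowest in WT. The median over both particles was 178 RPKM in cdc55Δ and 156 RPKM in WT. Core genes had a median of 202 RPKM in cdc55Δ and 173 RPKM in WT, above the regulatory genes at 164 RPKM in cdc55Δ and 136 RPKM in WT.

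PUP1 was the lowest particle gene in each library, at 120 RPKM in cdc55Δ and 101 RPKM in WT. PRE2, another catalytic subunit present in equal number in the particle, was 1.80 times as high per length in cdc55Δ and 1.67 times in WT. The highest gene was PUP3 in cdc55Δ, at 279 RPKM, where PRE5 had 276 RPKM. In WT it was PRE5, at 238 RPKM, where PUP3 had 210 RPKM. The genes outside the particles were lower. BLM10 had 103 RPKM in cdc55Δ and 78.4 RPKM in WT, RPN4 had 62.0 RPKM in cdc55Δ and 54.4 RPKM in WT, ECM29 had 61.6 RPKM in cdc55Δ and 47.1 RPKM in WT, and RPN14 had 16.8 RPKM in cdc55Δ and 14.2 RPKM in WT. RPN4 stood at 34.8% of the median particle gene in cdc55Δ and at 34.9% in WT.

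**Figure D2:**
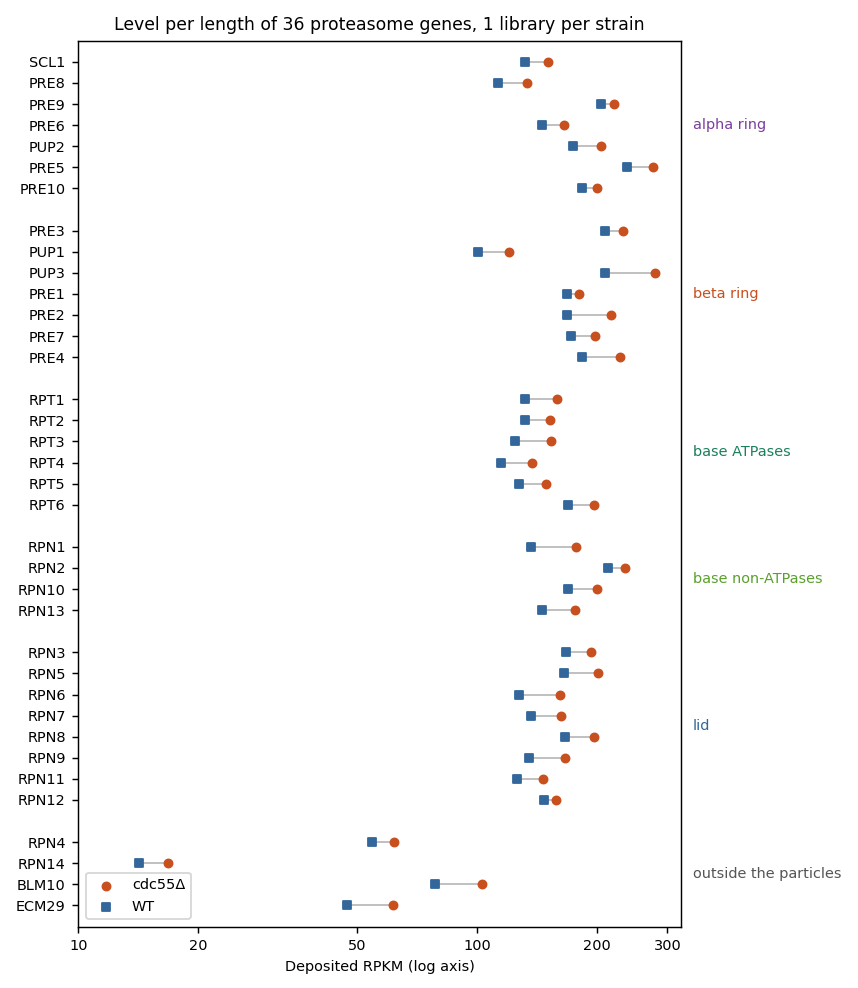
Deposited RPKM (horizontal log axis) of each of the 36 genes in the cdc55Δ library (circles) and in the WT library (squares), grouped by place in the complex. The 32 particle genes lie between 120 and 279 RPKM in cdc55Δ and between 101 and 238 RPKM in WT, and for each gene the circle is to the right of the square.

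The plot of levels by gene shows the narrow band of the particles and the lower genes outside them. No member shares a 100-base stretch, the length of a read, with another place in the R64 genome, and none overlaps another annotated gene. Their counts are therefore not split with identical copies of read length. Copies that differ by single bases were not searched for. The members lie on 13 chromosomes.

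Upstream sequence was examined because these genes lay close together and are known targets of Rpn4p. The 300 bases before each annotated start in R64 were searched on both strands for the PACE motif GGTGGCAAA. A match was found for 28 of the 36 members (77.8%), against 1.20% of 5979 genes with a full window. By place, 12 of the 14 core genes, 15 of the 18 regulatory genes and, outside the particles, ECM29 had a match. Each had 1 match, from 84 to 183 bases before the start with a median of 122, in the direction of the gene in 20 cases and against it in 8.

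The matches of the 4 highest and the 4 lowest members that have one are shown with 10 bases on each side, to set members at both ends of the range beside each other. They are written along the strand on which the motif reads as above, with the motif in capitals, from R64 as held by RefSeq.
PUP3, chrV:349511-349539, minus strand: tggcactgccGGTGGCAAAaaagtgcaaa
ECM29, chrVIII:39943-39971, plus strand: gccttttcttGGTGGCAAAaaaaaggtac
RPN1, chrVIII:164838-164866, minus strand: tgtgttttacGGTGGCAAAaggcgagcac
PRE2, chrXVI:732184-732212, plus strand: acagcaaaagGGTGGCAAAacgaagaata
PRE10, chrXV:1018856-1018884, minus strand: cctctaaatcGGTGGCAAAaataagaaag
PRE9, chrVII:761223-761251, plus strand: ttaccctgcaGGTGGCAAAaaatttatag
RPN12, chrVI:252398-252426, minus strand: aatttcaatgGGTGGCAAAtaatgtgtag
PRE1, chrV:177683-177711, plus strand: aaatctttacGGTGGCAAAaaataaagaa

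Members with and without the exact motif had similar log2 fold changes. The median was 0.25 over the 28 with a match and 0.27 over the 8 without, which are PRE5, PUP1, RPN8, RPN10, RPN13, RPN4, RPN14 and BLM10. A missing match says only that these letters are not in this window. The study concerns Msn2p and Msn4p, which bind the stress response element AGGGG, so this motif was also searched in the same windows, a search added after the first values were seen. It was found for 8 members (22.2%), against 22.1% of all 5979 genes. Over the 1232 tested genes with this element the median was 0.12, and 67.5% of them were higher in cdc55Δ. Over the 4312 tested genes without it the median was -0.02, and 1981 were higher. The 8 members with the element had a median of 0.30 and the 28 members without it one of 0.26, and all were higher.

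Genes that carry the PACE motif and are not members give values that the choice of members did not fix. There were 44 of them. Their median log2 fold change was 0.10, and 33 (75%) were higher in cdc55Δ. At least 25% higher were 11 of the 44, against 11.9% of the tested features. Of these genes, 8 lie back to back with a member and share its match, and their median was 0.16. Over the 36 whose match is not shared with a member the median was 0.10, and 26 were higher. Whether matches are shared among the 44 themselves was not examined, nor was overlap of the 44 with other annotated genes. The 5464 tested genes that are neither members nor carry the motif had a median of 0.00. The 44 genes thus lay between the members and the other genes, and they ranged more widely than the members, from -0.49 to 1.22.

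**Figure D3:**
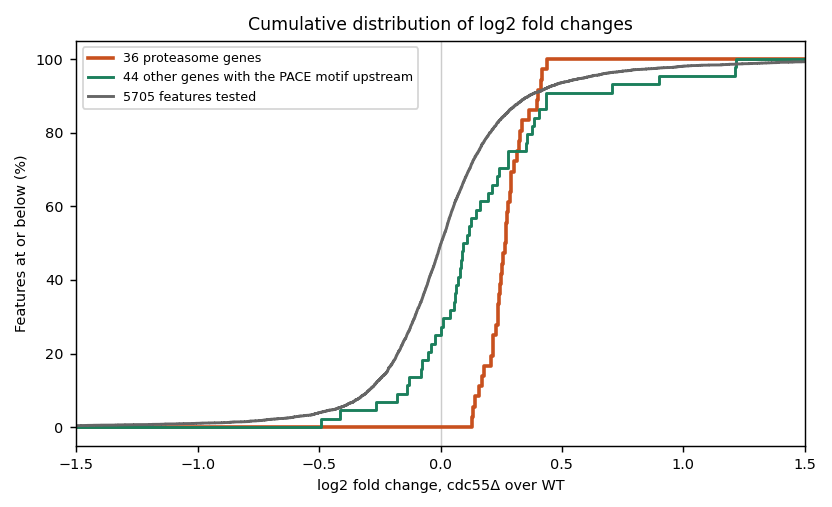
Cumulative share of features (vertical axis, percent) at or below each log2 fold change of cdc55Δ over WT (horizontal axis) for the 36 proteasome genes, the 44 other genes with the PACE motif upstream and the 5705 tested features. The curve of the proteasome genes rises between 0.13 and 0.44, that of the other motif genes has its middle at 0.10 and that of all features at 0.00. The axis stops short of the most extreme features.

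The cumulative plot shows this order and the steepness of the members' curve. Other genes of the ubiquitin-proteasome pathway were taken from 5 lists. The 7 shuttle factor genes and proteasome-bound or ubiquitin-recycling enzymes were all higher, with a median of 0.25. HUL5, a ubiquitin ligase bound to the proteasome, was the highest at 0.36 (0.27 to 0.45), with 2230 counts in cdc55Δ and 1949 in WT. RAD23, a shuttle factor, was the lowest at 0.17 (0.10 to 0.23), with 4021 counts in cdc55Δ and 4025 in WT. This list thus lay in the range of the members.

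The Cdc48p segregase extracts ubiquitinated proteins for the proteasome. Its list holds 7 genes, with SHP1, also known as UBX1, counted under the name SHP1 (5565 counts in cdc55Δ and 5463 in WT, a log2 fold change of 0.20). All 7 were higher, with a median of 0.24. CDC48 itself had 44098 counts in cdc55Δ and 36715 in WT, a log2 fold change of 0.43 (0.41 to 0.45). UBX5, a cofactor, was the highest at 0.56 (0.45 to 0.68), with 1436 counts in cdc55Δ and 1093 in WT, and UBX2, another cofactor, was the lowest at 0.08 (0.00 to 0.16).

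Not all factors of the proteasome had this shift. The 11 genes for assembly and storage factors and the small lid subunit Sem1p had a median of 0.03, with 7 higher and 4 lower, and the interval was above 0 for 4 of them. SEM1 was 1 of these 4 and lay in the range of the members. It had 2081 counts in cdc55Δ and 2045 in WT, a log2 fold change of 0.19 (0.10 to 0.28). NAS2, a chaperone of the base, was the highest at 0.42 (0.22 to 0.61), with 478 counts in cdc55Δ and 402 in WT. UMP1, a chaperone of the core particle, was the lowest at -0.09 (-0.20 to 0.03), with 1068 counts in cdc55Δ and 1274 in WT. The interval of UMP1 spans 0, and it overlaps the interval of no member.

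The 5 genes for ubiquitin and its activating enzyme did not lie together, with 2 higher and 3 lower. UBI4, which encodes the stress-induced polyubiquitin, had 7516 counts in cdc55Δ and 4534 in WT, a log2 fold change of 0.90 (0.84 to 0.95). UBA1, which encodes the ubiquitin-activating enzyme, stood at 0.38 (0.35 to 0.40). RPL40A, which encodes ubiquitin fused to a ribosomal protein, was the lowest at -0.25 (-0.26 to -0.23), with 39028 counts in cdc55Δ and 52011 in WT. RPL40A and RPL40B encode the same protein, and the handling of reads that fit both is not given in the sources used here.

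Of 7 genes for factors that activate RPN4 or degrade Rpn4p, 5 were lower, and the median was -0.07. The interval was below 0 for 3 of the 7 and above 0 for 1. PDR3, one of the activators of RPN4, was the lowest at -0.58 (-0.71 to -0.46), with 823 counts in cdc55Δ and 1387 in WT. YAP1, another activator, was the highest at 0.12 (0.06 to 0.17), with 4488 counts in cdc55Δ and 4657 in WT.

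Other large complexes were set beside the proteasome. The 8 genes of the chaperonin CCT were also all higher, 5 of them with an interval above 0, and their median was 0.08. Of the 14 genes of the vacuolar ATPase 10 were higher, with a median of 0.03. Of the 12 genes of RNA polymerase II 5 were higher, with a median of -0.08. The highest gene of the chaperonin list, CCT8, at 0.14 (0.10 to 0.19), lay near the lowest members. The range of the vacuolar ATPase list was from -0.28 for VMA3 to 0.21 for VMA13, and that of the RNA polymerase II list was from -0.24 for RPC10 to 0.19 for RPB3. A test of the difference between lists is not possible with 1 library per strain. The 1615 other mRNA features in the level range of the particle genes had a median of 0.01, and the 1186 of these in their length range had one of 0.00.

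**Figure D4:**
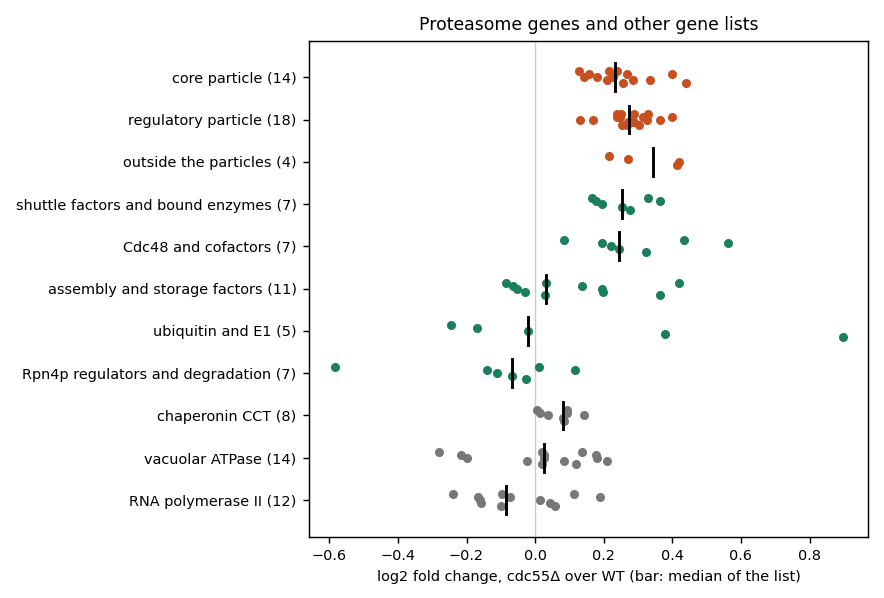
Log2 fold change of cdc55Δ over WT (horizontal axis) of each tested gene in the 3 groups of proteasome genes (orange), 5 other lists of the pathway (green) and 3 other large complexes (grey), with the number of genes in brackets. Black bars are medians. The shuttle factor and Cdc48p lists have medians of 0.25 and 0.24, the Cdc48p list runs from 0.08 to 0.56, and the other lists have medians from -0.08 to 0.08.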

How the data were processed

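Per the labels and the methods, the authors depleted rRNA, prepared directional libraries, sequenced both ends, demultiplexed with Cutadapt and mapped the reads to S288C with HISAT2. The submitters' processing notes name featureCounts. Strand setting and multi-mapped reads are not given in the sources used here. The authors deposited whole-number counts per transcript, RPKM values and TPM values. TPM was not used. Each deposited RPKM equals the count divided by length and library total, within rounding.

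TMM factors came from edgeR 4.0.16 under R 4.3.3. Log2 fold changes and intervals were computed in Python 3.11.15 with SciPy 1.17.1 and tested on simulated data. With 1 library per strain the quasi-likelihood fit of edgeR has no residual degrees of freedom, so no p-value is given. All 36 members matched R64 by RefSeq accession, 35 with the listed length, and PRE3 differs by its intron.

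Members and lists were chosen with earlier results of these data known. Named in full are RPN4, RPN14, BLM10, ECM29, the 3 highest and 3 lowest genes of each particle, and the highest and lowest of each other list. The text adds further members by role. Alternatives were DESeq2 1.42.0 size factors, other scalings, priors, count minimums, summaries and motif lengths.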

Additional observations from a re-analysis of the deposited data

How the results depend on the processing

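All 36 members were higher in cdc55Δ under each of the 7 other scalings, prior counts and units tried for single genes. A change of scale moves every gene by the same amount. The largest such shift from TMM was -0.042, with upper-quartile scaling, which is too small to turn the sign of any member. The median log2 fold change of the members ran from 0.23 with upper-quartile scaling to 0.27 with iterated DEGES, against 0.27 with TMM. The value of PRE1, the lowest member with TMM, ran from 0.09 to 0.13. Of 252 values for single members, 248 stayed within the counting interval, and the 4 others, all with upper-quartile scaling, were RPN1, RPN2, BLM10 and ECM29. These 4 have the most counts of the members and so the narrowest intervals. The difference of core minus regulatory particle was -0.043 by medians and -0.022 from summed counts. It was -0.048 against the base alone and -0.040 against the lid alone. The median of all genes with the 9-letter PACE motif, members included, was 0.21, and it was 0.11 with the first 7 letters, which also fit genes without the full motif. Without the members, the 129 tested genes with these 7 letters had a median of 0.06, and 57.4% of them were higher in cdc55Δ. No paired analysis was possible because each strain has 1 library, which also leaves no library to leave out. Depth limits RPN14 most, and the spread between cultures was not measured.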

Other observations

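Among the genes that carry the PACE motif and belong to none of the lists, values spread in both directions. The examples were picked with their values known. Overlap with other annotated genes, which can add reads of a neighbour, was examined for the members only and not for these genes. The gene listed as YCL042W had 3360 counts in cdc55Δ and 1626 in WT, a log2 fold change of 1.22 (95% interval 1.13 to 1.30), and was the highest. LSB3 had 4745 counts in cdc55Δ and 4090 in WT, a log2 fold change of 0.38 (0.32 to 0.44). PIM1, which encodes the Lon protease of mitochondria, had 8720 counts in cdc55Δ and 8462 in WT, a log2 fold change of 0.21. At the other end, WSS1, which encodes a protease that acts on DNA-protein crosslinks, had 398 counts in cdc55Δ and 630 in WT, a log2 fold change of -0.49. SGT2, which encodes a cochaperone of tail-anchored proteins, had 12141 counts in cdc55Δ and 14143 in WT, a log2 fold change of -0.05.

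Of the 8 genes that share 1 PACE match back to back with a member, 4 had a counting interval that overlaps that of the member and 4 did not. Among those that overlap, MPO1 had a log2 fold change of 0.23 (0.00 to 0.46), where SCL1 had 0.22, and YPI1 had 0.28 (0.14 to 0.42), where RPN11 had 0.25. ALG13, at 0.43 (0.25 to 0.62), and YOL038C-A, at 0.35 (-0.14 to 0.85), also overlap their members RPT6 and PRE6. Among those that do not, PMT1 had -0.04 (-0.07 to -0.01), where RPN6 had 0.36, and NOP14 had 0.09 (0.04 to 0.14), where RPN5 had 0.32. GCD1 had 0.08 (0.03 to 0.14), where RPT4 had 0.29, and YTH1 had 0.06 (-0.10 to 0.23), where RPN7 had 0.28, with bounds that nearly touch.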
